A study of Mus musculus with 54 samples.

Results

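Gene expression in the neural retina of rd1 mice was compared with that of wild-type (WT) mice at postnatal day 15 (PN15), an age at which rods were partly lost. The comparison rests on the 4 arrays titled PN15, 2 of WT and 2 of rd1 retina, out of 54 arrays that followed both genotypes through 12 ages from PN5 to PN35, and it describes all 18193 genes that the array annotation names by a symbol of their own. Both groups were C3H mice. The WT group is labelled C3Hwt/wt and the rd1 group C3Hrd1/rd1, homozygous for the rd1 allele of Pde6b, and no treatment is named for either. Total RNA was purified on a cesium gradient from dissected neural retina, and biotin-labeled cRNA was hybridized to oligonucleotide arrays. The labels call the arrays biological replicates, but do not say how many animals or eyes each array holds, so the p-values measure the spread between arrays of a group, pooled over the replicated ages, which may be technical. The numbers 1 and 2 below are the replicate numbers of the labels. The labels name no pairing of a WT with an rd1 array, and the main fit uses none.

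Rods detect dim light through a cascade in which rhodopsin activates transducin and transducin activates the phosphodiesterase PDE6, which breaks down cGMP and so lets the cGMP-gated channel of the outer segment close. The rd1 allele inactivates Pde6b, the gene of the beta subunit of PDE6, and cGMP and calcium accumulate in the rods, which die within weeks of birth while cones outlast them. Müller glia span the retina and answer photoreceptor injury through LIF and other cytokines that act on the gp130 receptor and Stat3, and microglia, the resident macrophages, migrate into the photoreceptor layer and engulf dying rods. The series title names proteasome dysfunction, and the proteasome genes were therefore read beside those of cell types, immunity and stress. Transcripts alone were measured, so nothing below describes proteasome activity.

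No measure of RNA quality was used here. Over all genes the replicates correlated with r = 0.998 in WT and 0.996 in rd1, across genes, which are not independent replicates, and the SD of the log2 difference between replicates was 0.125 in WT and 0.200 in rd1. Median intensity per array lay between 127 and 134 over the whole series. None of 15 lens genes was called between the genotypes by limma, 0 also at an unadjusted p under 0.05, with mean log2 intensities of 7.44 and 6.96 in WT and 7.31 and 6.42 in rd1. Of these genes 14 were below 0 in rd1 minus WT, down to -1.06. Lens means scattered between arrays of 1 genotype at other ages, such as 6.11, 6.25 and 12.53 in WT at PN7. The fit pools that spread, so the lack of calls cannot show that lens was absent or equal. The pigment epithelium genes averaged 7.45 and 7.23 in WT and 7.28 and 7.59 in rd1. Values below are log2 intensities or log2 differences of rd1 minus WT followed by the fit's standard error (SE). A gene is said to have risen or fallen in rd1 where the difference passed an adjusted p of 0.05 in limma, with Benjamini-Hochberg adjustment over all genes.

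Pde6b was checked before other genes. Its log2 intensity was 13.32 and 13.23 in WT and 9.70 and 10.55 in rd1. Both rd1 arrays lay below both WT arrays, and the log2 difference was -3.15 ± 0.21 (adjusted p = 3.28e-15), an 8.86-fold lower intensity. The same difference was -1.79 at PN13 and -6.31 at PN21.

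Of the 18193 genes, 3920 (21.5%) were called at PN15, with 2249 (12.4%) higher and 1671 (9.18%) lower in rd1. The large differences were mostly falls: 217 called genes were at least 2-fold lower and 83 at least 2-fold higher. The rd1 and WT arrays did not overlap for 57.7% of all genes, so separation of 2 against 2 arrays is by itself common here. The median difference of all genes was 0.02. This balance rests on the deposited scaling, which equalizes the arrays over all transcripts. When each array was instead centred on 32 amacrine and ganglion cell genes, markers of inner retinal neurons that are not photoreceptors, every difference moved by -0.34, and 11027 genes (60.6%) were called, 359 (1.97%) higher and 10668 (58.6%) lower. Small rises and small falls below therefore depend on the scaling, and the median or value after this centring is given beside them. Counts of list members below are to be read against 12.4% of all genes called higher and 9.18% lower. Counts after centring are to be read against 1.97% and 58.6%. In bulk retina, fewer cells of a type and less RNA per cell cannot be told apart, and neither can a gain of other cells and a larger share of the RNA.

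The 2 rd1 arrays did not stand at the same point. rd1 array 1 had the lower rod levels, with a mean over the rod phototransduction genes of 10.48 against 10.86 in array 2 and 12.04 and 12.03 in WT, and 23 of 24 of these genes were lower in array 1 than in array 2. It also had the higher amacrine and ganglion cell means, 10.38 and 9.83 against 10.20 and 9.61. rd1 array 2 had the higher interferon-stimulated mean, 7.74 against 7.05, with all 24 genes higher than in array 1, and WT stood at 6.59 and 6.61. Without rd1 array 1 the calls over all genes came to 1029 higher (5.66%) and 1265 lower (6.95%), 12.6% together. Without rd1 array 2 they came to 2290 higher (12.6%) and 1321 lower (7.26%), 19.8% together. Without WT array 1 they came to 1544 higher (8.49%) and 1157 lower (6.36%), 14.8% together, and without WT array 2 to 1403 higher (7.71%) and 1276 lower (7.01%), 14.7% together. Counts of list members without an array are to be read against these shares.

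**Figure D1:**
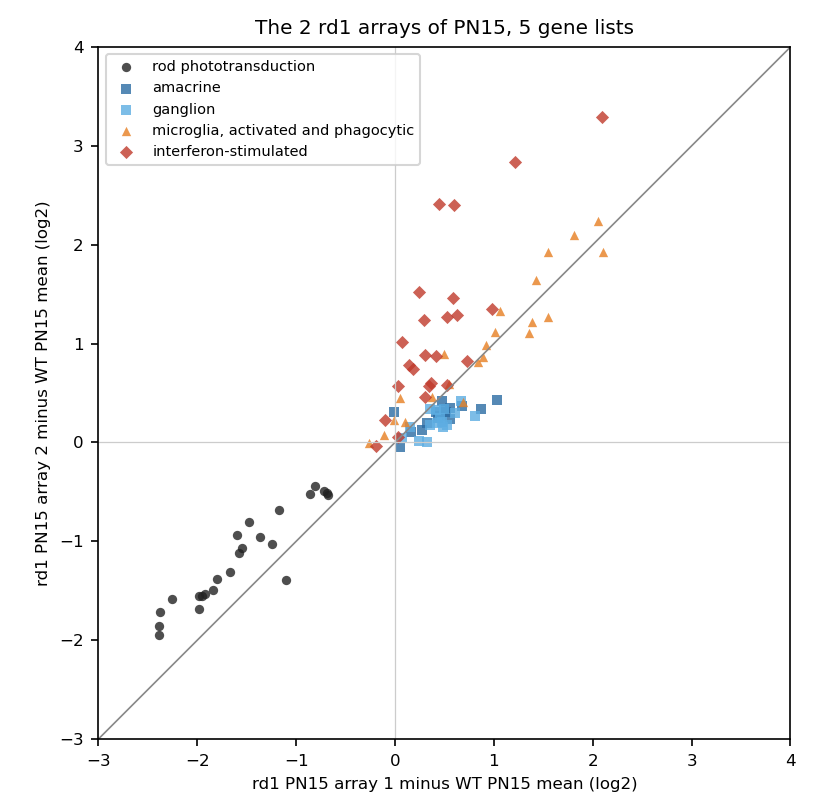
Log2 difference of each member of 5 gene lists from the WT mean at PN15, in rd1 array 1 (horizontal axis) and rd1 array 2 (vertical axis). Each point is a gene and the diagonal marks equal values. Rod genes lie mostly above the diagonal at the lower left, amacrine and ganglion cell genes mostly below it, and all 24 interferon-stimulated genes above it.

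Pde6b and Pdzph1 were the largest falls. Pdzph1 stood at 10.82 and 10.85 in WT and 7.24 and 7.77 in rd1, a log2 difference of -3.33 ± 0.23 (adjusted p = 1.09e-14). Fscn2, an actin-bundling protein of photoreceptors, stood at 8.54 and 8.51 in WT and 6.07 and 6.38 in rd1. Samd11, a photoreceptor partner of polycomb proteins, stood at 11.70 and 11.71 in WT and 9.13 and 9.92 in rd1. Its difference of -2.18 was -1.11 as the mean of its probe sets. In Pdzph1, Fscn2 and Samd11 both rd1 arrays lay far below both WT arrays, with rd1 array 1 the lower. The other 16 of the 20 largest falls after Pde6b ran from -2.17 to -1.83 and were Susd3, Glb1l2, Nxnl2, Nt5e, Cdr2, Plpp2, Cnga1, Kcnj14, Rdh12, Guca1b, Ccn4, Reep6, Prph2, Slc16a6, Arg2 and Esrrb. Nt5e is the ecto-5'-nucleotidase that makes adenosine and a surface marker of rod precursors. It stood at 11.03 and 11.09 in WT and 8.69 and 9.13 in rd1. Its difference was -2.15 ± 0.10 (adjusted p = 9.72e-19), but -1.16 as the mean of its probe sets. Arg2 is the mitochondrial arginase, and it stood at 8.56 and 8.44 in WT and 6.53 and 6.80 in rd1.

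Of the 20 largest rises, 4 are in the reactive glia list, 3 in the complement list, 3 in the activated microglia list, 2 in the interferon list, 2 in the metal list and 1 in the antigen presentation list, while 5 are in no list. S100a6, a calcium-binding protein of reactive glia, rose most, from 5.10 and 5.05 in WT and 8.08 and 8.05 in rd1, a log2 difference of 2.99 ± 0.27 (adjusted p = 1.59e-11) and 7.95-fold. After it came B2m, C1qa, Ifitm3, C1qc, Serping1, Cebpd, Gfap, Lyz1, Mt2, A2m, Tyrobp, Mt1, Cebpb, Oasl2, Ly86, Cd68, Cd53, Mpeg1 and Rnase4, with differences from 2.79 down to 1.85. Lyz1, a lysozyme, rested on a probe set that rose by 2.35 while another of its 3 probe sets differed by -0.03, and its sequence is close to that of Lyz2.

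**Figure D2:**
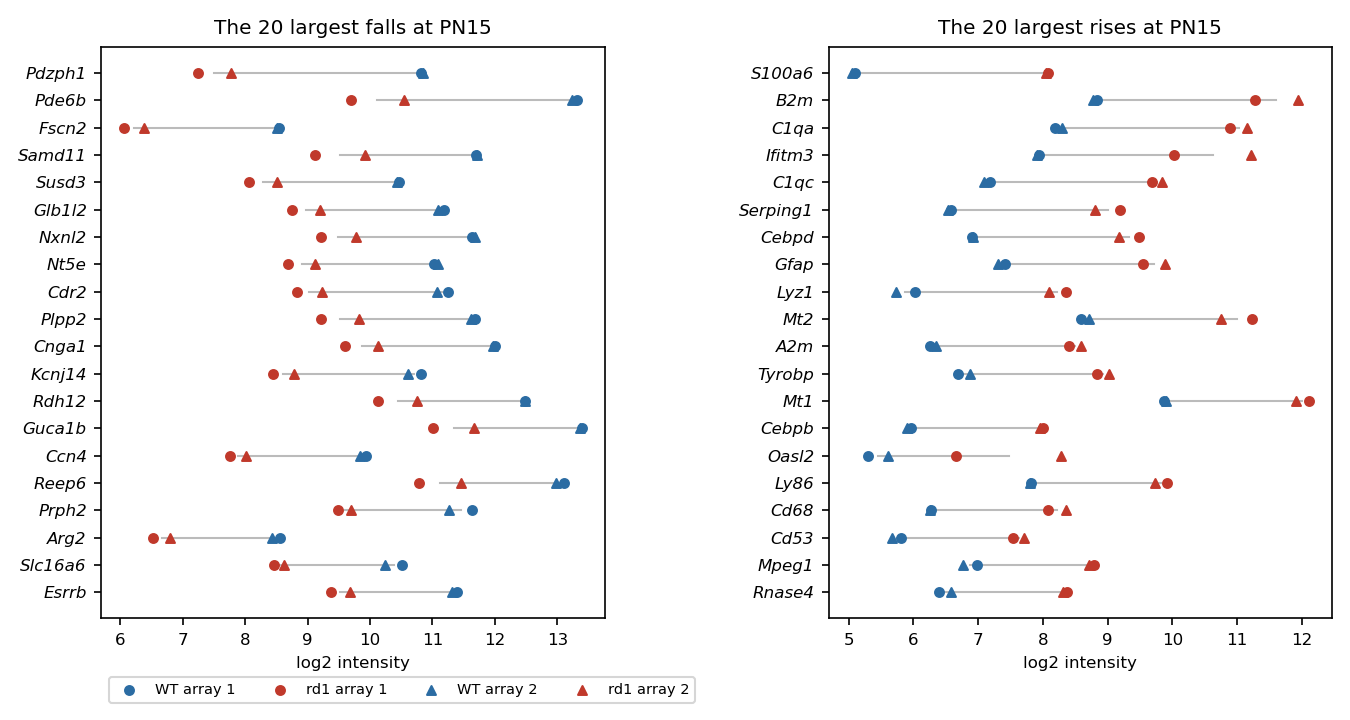
Log2 intensity (horizontal axis) of the 20 largest falls and the 20 largest rises at PN15 (rows), with WT in blue, rd1 in red, circles for array 1, triangles for array 2 and a line from the WT mean to the rd1 mean. The WT arrays nearly coincide for most genes, and Ifitm3 and Oasl2 show the widest gap between the rd1 arrays.

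Promoter sequence was set beside the genes that moved most, using RefSeq windows (build GRCm38.p6) of 300 bases, 250 before to 50 after the start of a gene. The letters searched on both strands included TAATCC, the core bound by the photoreceptor factors Crx and Otx2, and GAAANNGAA, the core of the interferon-stimulated response element. They also included TTCNNNGAA, the element bound by STAT proteins, which can overlap GAAANNGAA, and TGANTCA, the AP-1 element. A match is a description of the letters and not of binding. TAATCC was found in 8 of the 17 rod phototransduction genes with a window (47.1%), against 8.14% of all 27025 genes with one, and in 3 of 13 of the largest falls (23.1%), Samd11, Cnga1 and Nxnl2. The same letters were in 2 of 15 of the largest rises (13.3%) and 3 of 20 interferon-stimulated genes (15%). The counts of falls and rises are too small to set the 2 groups apart. GAAANNGAA was found in 12 of 20 interferon-stimulated genes (60%), against 9.76% of all genes. Of the largest rises 4 of 15 held it (26.7%), and of the largest falls 0 of 13. TTCNNNGAA was found in 4 of 22 reactive glia genes (18.2%), in 3 of 17 rod phototransduction genes (17.6%) and in 8 of 20 interferon-stimulated genes (40%), against 9.55% of all genes. TGANTCA was found in 6 of 20 interferon-stimulated genes (30%), against 8.97% of all genes. It was also in 4 of 22 reactive glia genes (18.2%), 3 of 15 of the largest rises (20%) and 1 of 17 rod phototransduction genes (5.88%). The windows of the 3 falls and of 3 of the largest rises are shown because these genes carry the main groups of this age, with the matched letters, on either strand, in capitals.
Samd11, chr4:156255293-156255592, minus strand, TAATCC: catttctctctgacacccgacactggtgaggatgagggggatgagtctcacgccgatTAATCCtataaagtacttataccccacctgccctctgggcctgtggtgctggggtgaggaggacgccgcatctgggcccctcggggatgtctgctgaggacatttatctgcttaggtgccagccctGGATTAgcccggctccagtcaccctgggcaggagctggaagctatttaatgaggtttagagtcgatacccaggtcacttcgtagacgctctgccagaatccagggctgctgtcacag
Cnga1, chr5:72642703-72643002, minus strand, TAATCC: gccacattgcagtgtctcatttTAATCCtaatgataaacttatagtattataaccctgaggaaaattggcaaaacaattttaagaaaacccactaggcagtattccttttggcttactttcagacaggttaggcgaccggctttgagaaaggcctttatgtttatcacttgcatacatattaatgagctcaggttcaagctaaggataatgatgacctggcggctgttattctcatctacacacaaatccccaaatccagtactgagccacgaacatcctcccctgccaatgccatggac
Nxnl2, chr13:51170775-51171074, plus strand, TAATCC: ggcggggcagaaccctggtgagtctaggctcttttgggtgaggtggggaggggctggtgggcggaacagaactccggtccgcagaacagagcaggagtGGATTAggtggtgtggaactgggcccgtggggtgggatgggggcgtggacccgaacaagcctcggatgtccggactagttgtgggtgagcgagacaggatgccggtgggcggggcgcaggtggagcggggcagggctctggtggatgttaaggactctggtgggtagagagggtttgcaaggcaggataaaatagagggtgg
B2m, chr2:122147437-122147736, plus strand, GAAANNGAA: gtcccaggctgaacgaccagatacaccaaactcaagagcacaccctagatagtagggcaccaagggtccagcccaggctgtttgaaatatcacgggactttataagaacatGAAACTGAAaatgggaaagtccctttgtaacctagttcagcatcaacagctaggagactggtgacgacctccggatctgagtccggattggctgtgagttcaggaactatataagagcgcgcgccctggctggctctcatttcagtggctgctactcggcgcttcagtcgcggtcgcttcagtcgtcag
Ifitm3, chr7:141010695-141010994, minus strand, GAAANNGAA: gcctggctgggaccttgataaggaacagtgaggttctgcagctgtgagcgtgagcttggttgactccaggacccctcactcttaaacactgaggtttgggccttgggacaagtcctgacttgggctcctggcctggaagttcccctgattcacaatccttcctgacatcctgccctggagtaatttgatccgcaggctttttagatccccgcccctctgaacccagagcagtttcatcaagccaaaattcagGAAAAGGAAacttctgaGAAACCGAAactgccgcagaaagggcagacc
Gfap, chr11:102897151-102897450, minus strand, TTCNNNGAA: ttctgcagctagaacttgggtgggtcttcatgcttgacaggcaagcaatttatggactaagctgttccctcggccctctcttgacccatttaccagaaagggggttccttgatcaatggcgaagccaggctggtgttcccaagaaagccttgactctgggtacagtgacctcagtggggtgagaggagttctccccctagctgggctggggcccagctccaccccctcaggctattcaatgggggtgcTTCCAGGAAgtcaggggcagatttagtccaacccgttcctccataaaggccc
Samd11 and Ifitm3 hold 2 matches each, at positions -193 and -67 and at positions 2 and 19 from the start of the gene; those of Cnga1, Nxnl2, B2m and Gfap lie at -228, -152, -139 and -2.

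All 24 rod phototransduction genes measured fell in rd1, and none rose. Their differences ran from -2.17 to -0.60 with a median of -1.33 (-1.67 after centring), against 9.18% of all genes called lower. In order of the cascade, Gnat1, the rod transducin alpha subunit, stood at 14.12 and 14.11 in WT and 12.94 and 13.43 in rd1, a log2 difference of -0.93 ± 0.28 (adjusted p = 0.0117). That call was lost without rd1 array 1 (-0.69, adjusted p = 0.203), without either WT array (0.0667 and 0.0624) and after quantile normalization (0.072). Pde6a, the alpha subunit of PDE6 and partner of Pde6b, stood at 10.80 and 10.56 in WT and 8.85 and 9.19 in rd1, a difference of -1.66 ± 0.23 (adjusted p = 3.08e-07). The cGMP-gated channel subunit Cnga1 stood at 12.01 and 11.97 in WT and 9.60 and 10.13 in rd1, a difference of -2.12 ± 0.12 (adjusted p = 6.24e-17). Of these 3 genes, the channel subunit fell furthest, and the groups did not overlap in any. Guca1b, which activates guanylate cyclase when calcium is low, stood at 13.39 and 13.37 in WT and 11.01 and 11.67 in rd1, a difference of -2.04 ± 0.20. Gucy2e, the outer segment guanylate cyclase of rods and cones, stood at 7.73 and 7.57 in WT and 6.40 and 6.62 in rd1, a difference of -1.13 ± 0.18. Grk1, the rhodopsin kinase that starts recovery from light, stood at 9.14 and 9.08 in WT and 7.56 and 8.04 in rd1, a difference of -1.31 ± 0.14. Reep6, an endoplasmic reticulum protein of rods, stood at 13.10 and 12.98 in WT and 10.78 and 11.45 in rd1. Falls thus included the excitation, cyclase and recovery members, and the smallest differences, -0.60, were those of Gnb5, Gnb1 and Pdc.

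Genes of the outer segment and its cilium fell in 19 of 24 cases and rose in 1, with a median of -0.94 (-1.29 after centring). Prph2, the tetraspanin that shapes the disc rim, stood at 11.63 and 11.27 in WT and 9.49 and 9.70 in rd1, a log2 difference of -1.85 ± 0.19 (adjusted p = 7.96e-10). Its partner Rom1 stood at 13.05 and 13.04 in WT and 11.24 and 11.66 in rd1, a difference of -1.59 ± 0.12. Rp1, a microtubule protein of the outer segment axoneme, stood at 12.41 and 12.44 in WT and 10.91 and 11.27 in rd1, a difference of -1.34 ± 0.12. Rp1l1, its paralog, differed by -1.57 ± 0.11, and Impg1, a proteoglycan of the matrix around the photoreceptors, by -1.56 ± 0.18. The rise was that of Kif3a, a kinesin of ciliary transport (0.21), and it was not called after centring, without WT array 2, without rd1 array 1 or on the PN15 arrays alone. Without rd1 array 2 the rises numbered 2.

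Photoreceptor transcription factors fell in 13 of 15 cases and rose in none, with a median of -1.04 (-1.38 after centring). Nrl, which directs precursors to the rod fate, stood at 13.48 and 13.47 in WT and 11.90 and 12.36 in rd1, a log2 difference of -1.35 ± 0.07 (adjusted p = 3.19e-17). Esrrb, an orphan receptor needed for rod survival, stood at 11.40 and 11.32 in WT and 9.38 and 9.68 in rd1, a difference of -1.83 ± 0.19. Crx, which rods and cones share and which was chosen after its values were seen, stood at 12.45 and 12.51 in WT and 11.37 and 11.51 in rd1, a difference of -1.04 ± 0.08. Ankrd33 differed by -1.45 ± 0.12, Samd7 by -1.27 ± 0.17 and Prdm1, which keeps precursors from the bipolar fate, by -1.26 ± 0.10. The 2 members not called were Thrb and Rxrg, both cone regulators.

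At the photoreceptor synapse 13 of 20 genes fell and 3 rose, with a median of -0.56 (-0.90 after centring). Cabp4, which tunes the presynaptic calcium channel, stood at 10.27 and 10.40 in WT and 8.41 and 8.85 in rd1, a log2 difference of -1.71 ± 0.24 (adjusted p = 4.6e-07). Egflam, or pikachurin, which aligns the bipolar dendrite with the photoreceptor, stood at 10.83 and 10.79 in WT and 9.18 and 9.38 in rd1, a difference of -1.53 ± 0.10. Slc17a7, the vesicular glutamate transporter, stood at 11.94 and 11.85 in WT and 10.68 and 11.03 in rd1, a difference of -1.04 ± 0.18, and Cplx4, a complexin of the ribbon synapse, differed by -1.28 ± 0.14. The rises were Pclo, Cplx3 and Dag1 at 0.27, 0.29 and 0.45, and none was called after centring. Without rd1 array 1 the rises numbered 1, and without WT array 1 or WT array 2 they numbered 2.

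Of 15 visual cycle and retinoid genes, 5 fell and 1 rose, beside 9.18% and 12.4% of all genes. The median was 0.04 (-0.30 after centring). Rdh12, a retinol dehydrogenase of the inner segment, stood at 12.49 and 12.49 in WT and 10.13 and 10.76 in rd1, a log2 difference of -2.05 ± 0.15 (adjusted p = 3.63e-14). Abca4, which clears retinal from the discs, stood at 12.68 and 12.67 in WT and 10.83 and 11.24 in rd1, a difference of -1.64 ± 0.12. Rbp3, the retinoid carrier of the interphotoreceptor matrix, stood at 13.45 and 13.40 in WT and 12.31 and 12.78 in rd1, a difference of -0.88 ± 0.15. Genes of membrane lipids split, with 6 of 16 lower and 3 higher and a median of -0.09 (-0.43 after centring). Elovl4, which makes the very long fatty acids of the discs, stood at 11.94 and 11.89 in WT and 10.89 and 11.07 in rd1, a difference of -0.93 ± 0.10. Agpat3 and Adipor1, both needed for docosahexaenoic acid in the discs, differed by -1.20 ± 0.09 and -1.04 ± 0.08, and the fatty acid binding protein Fabp12 by -1.32 ± 0.12. Abca1, the exporter of cholesterol, rose instead, from 9.62 and 9.76 in WT and 11.08 and 10.87 in rd1, a difference of 1.29 ± 0.12.

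Cone genes did not fall as a group: 4 of 17 rose and 2 fell, with a median of 0.10, beside 12.4% of all genes called higher and 9.18% lower. With single PN15 arrays left out, the median ran from 0.06 to 0.16. After centring the median was -0.24, with 1 higher and 9 lower, beside 1.97% and 58.6% of all genes. The 2 falls, Grk1 and Gucy2e, are genes that rods express too. Arr3, cone arrestin, stood at 10.60 and 10.56 in WT and 11.83 and 11.39 in rd1, a log2 difference of 1.03 ± 0.14 (adjusted p = 4.31e-07). It stayed higher after centring (0.69) and as the mean of its probe sets (0.78). Gnb3, the transducin beta subunit of cones and of ON bipolar cells, stood at 12.21 and 12.15 in WT and 12.54 and 12.70 in rd1, a difference of 0.44 ± 0.10, and was no longer called after centring (0.10). The opsins, chosen after their values were seen, were not called. Opn1sw stood at 12.19 and 12.22 in WT and 12.41 and 12.31 in rd1, a difference of 0.15 ± 0.10 that turned to -0.19 and passed the threshold after centring (adjusted p = 0.0349). Opn1mw stood at 11.36 and 11.27 in WT and 11.38 and 11.29 in rd1, a difference of 0.02 ± 0.27, and its groups overlapped.

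Other neurons showed small rises of much the same size. In rd1, 7 of 17 ON bipolar genes rose (median 0.34), 7 of 9 OFF bipolar (0.37), 12 of 16 amacrine (0.38), 11 of 16 ganglion cell (0.34) and 3 of 8 horizontal cell genes (0.25), and none fell, beside 12.4% of all genes called higher. After centring on the amacrine and ganglion genes themselves, the medians were -0.004, 0.03, 0.04, 0.00 and -0.09. Calb2, the calretinin of amacrine and ganglion cells, stood at 12.87 and 12.85 in WT and 13.34 and 13.28 in rd1, a log2 difference of 0.45 ± 0.09 (adjusted p = 0.000112; 0.11 after centring). Nefl, a neurofilament of ganglion cell axons, stood at 12.69 and 12.64 in WT and 13.08 and 12.99 in rd1, a difference of 0.37 ± 0.08 (0.03 after centring), and Nefm differed by 0.54 ± 0.12 (0.20). Most of these calls needed rd1 array 1. Without it the rises came to 2 ON bipolar, 2 OFF bipolar, 3 amacrine, 3 ganglion and 1 horizontal; without WT array 1 to 3 ON bipolar and 7 ganglion; and without WT array 2 to 3 ON bipolar, 3 OFF bipolar and 6 ganglion.

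**Figure D3:**
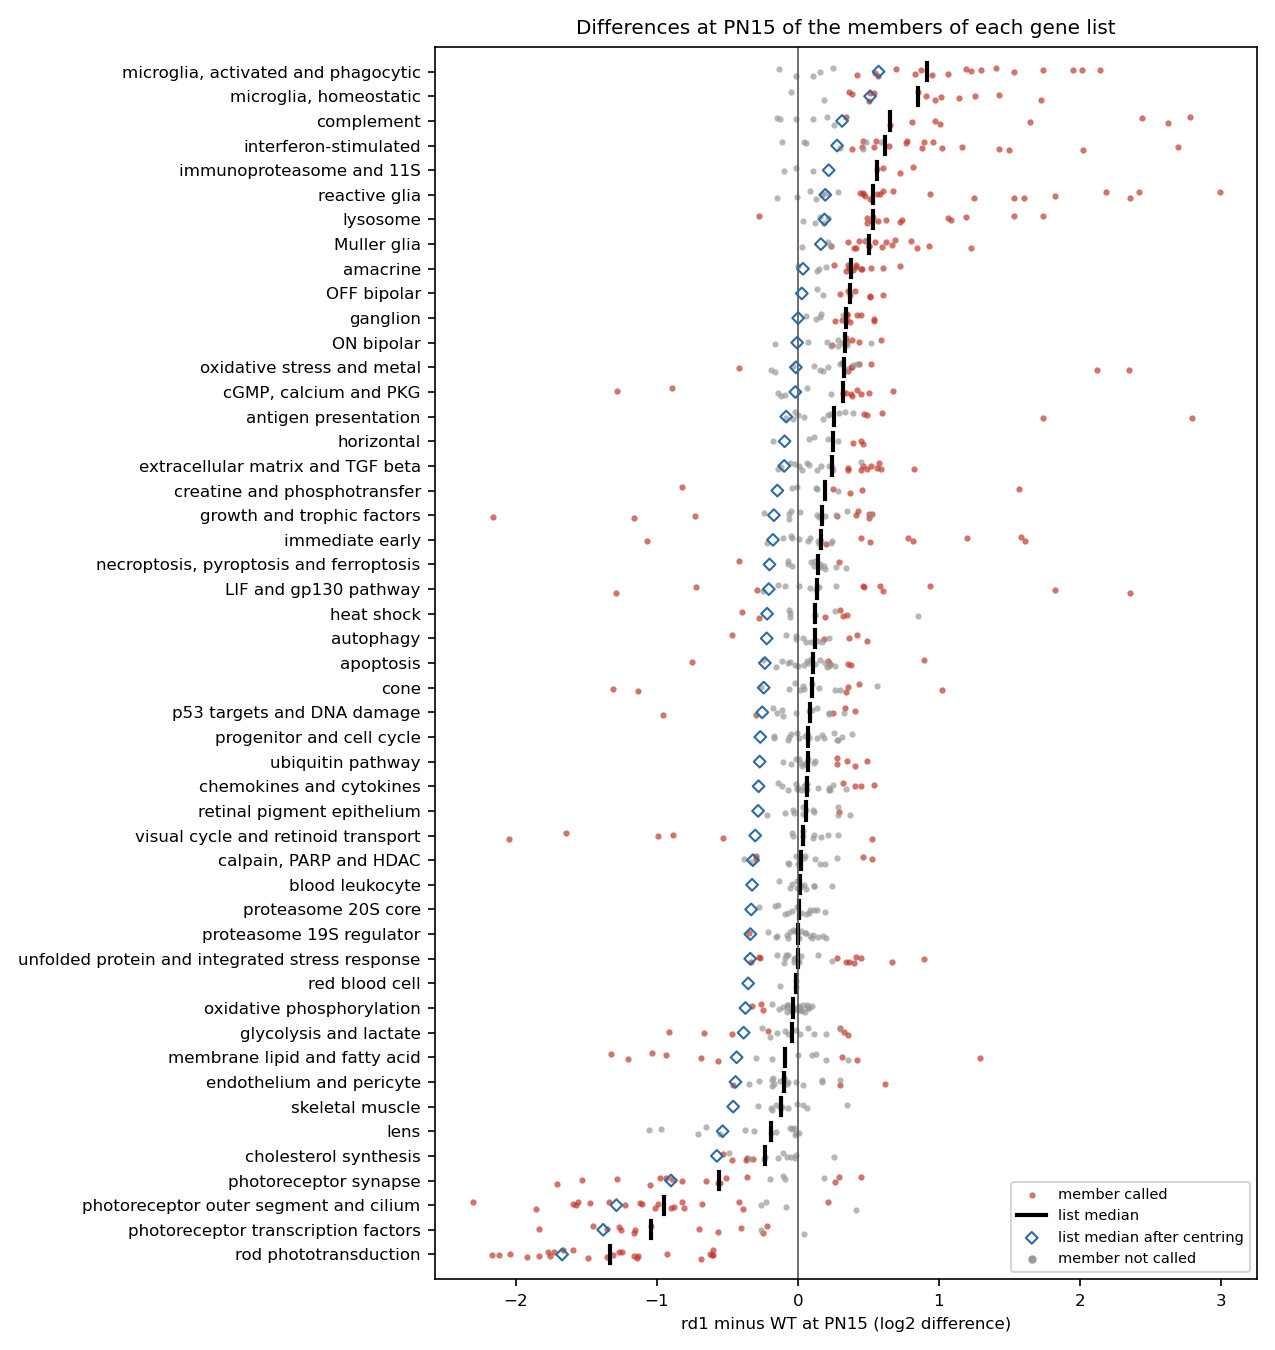
Log2 difference of rd1 minus WT at PN15 (horizontal axis) for the members of 49 gene lists (rows), with called members in red, others in grey, the list median as a black bar and the median after centring on amacrine and ganglion genes as a blue diamond. Rod and other photoreceptor lists lie at the bottom with medians down to -1.33, and the 2 microglia lists at the top with medians of 0.85 and 0.91.

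Müller glia genes rose in 17 of 21 cases and fell in none, with a median of 0.50. After centring the median was 0.16, with 9 higher and 1 lower, beside 1.97% and 58.6% of all genes. Without rd1 array 1 the rises numbered 9. Apoe, the lipid carrier made by Müller cells and microglia, stood at 12.20 and 12.21 in WT and 13.56 and 13.31 in rd1, a log2 difference of 1.23 ± 0.10 (adjusted p = 2.99e-12). Clu, the secreted chaperone clusterin, stood at 12.49 and 12.53 in WT and 13.54 and 13.35 in rd1, a difference of 0.93 ± 0.15. Crym, a thyroid hormone binding protein, stood at 10.05 and 10.15 in WT and 10.97 and 10.93 in rd1, a difference of 0.84 ± 0.08, and Gpr37, an orphan receptor of glia, differed by 0.69 ± 0.09. All 4 genes stayed higher after centring, at 0.89, 0.59, 0.50 and 0.35. The enzyme Glul and the retinal carrier Rlbp1, both Müller markers, were among the 4 members not called.

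Reactive glia genes rose in 18 of 26 cases and fell in none, with a median of 0.54 (0.20 after centring, with 11 higher and 2 lower). Gfap, the intermediate filament that marks stressed Müller cells, stood at 7.41 and 7.31 in WT and 9.55 and 9.89 in rd1, a log2 difference of 2.35 ± 0.23 (adjusted p = 7.38e-11), and its 3 probe sets ran from 0.98 to 3.05. Cebpd, a transcription factor induced by cytokines, stood at 6.90 and 6.92 in WT and 9.48 and 9.18 in rd1. Its difference was 2.42 ± 0.15, but 1.28 as the mean of its probe sets. A2m, a protease inhibitor of the acute phase, stood at 6.26 and 6.36 in WT and 8.40 and 8.59 in rd1, a difference of 2.18 ± 0.12. Serpina3n and Cd44, chosen after their values were seen, rose by 1.61 ± 0.16 and 1.53 ± 0.18. Cebpb, a factor related to Cebpd, rose by 2.05 ± 0.20 (1.38 as the mean of its probe sets). For S100a6, Cebpd and Cebpb the difference had been almost as large at PN13, at 2.69, 2.24 and 1.91.

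Of 19 genes of the LIF and gp130 pathway, 7 rose and 3 fell, with a median of 0.14 (-0.21 after centring). Among secreted members of the list, Edn2, the endothelin that injured photoreceptors release, stood at 5.53 and 5.47 in WT and 7.12 and 7.53 in rd1. Its log2 difference was 1.82 ± 0.17 (adjusted p = 7.63e-11), while the ligand Lif itself was not called. Among receptors, Osmr, the oncostatin M receptor, stood at 5.93 and 6.07 in WT and 6.87 and 7.01 in rd1, a difference of 0.94 ± 0.14, and Lifr, the LIF receptor, fell, from 10.39 and 10.45 in WT and 9.76 and 9.64 in rd1, a difference of -0.72 ± 0.11. Downstream, Stat3, chosen after its values were seen, stood at 9.45 and 9.50 in WT and 10.07 and 10.05 in rd1, a difference of 0.58 ± 0.10 (0.24 after centring), and Pias3, an inhibitor of Stat3 that photoreceptors also express, fell, from 11.04 and 10.93 in WT and 9.52 and 9.88 in rd1, a difference of -1.29 ± 0.08. The members thus moved in both directions, with the receptor Lifr and the inhibitor Pias3 opposite to Edn2, Osmr and Stat3.

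Metal and oxidative stress genes rose in 8 of 20 cases and fell in 1, with a median of 0.33 (-0.01 after centring). The metallothioneins stood apart from the rest, which lay at 0.52 or lower. Mt1 stood at 9.86 and 9.90 in WT and 12.11 and 11.90 in rd1, a log2 difference of 2.12 ± 0.19 (adjusted p = 7.44e-12), although another of its probe sets differed by 0.06, and Mt2 stood at 8.59 and 8.71 in WT and 11.23 and 10.75 in rd1, a difference of 2.35 ± 0.20. Gpx4, the peroxidase that protects membrane lipids, fell, from 12.01 and 12.04 in WT and 11.60 and 11.62 in rd1, a difference of -0.42 ± 0.08. Without rd1 array 1 the rises of this list numbered 3.

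Microglial genes rose in both lists. Of the homeostatic genes 13 of 15 rose and none fell, with a median of 0.85 (0.51 after centring, with 8 higher and 1 lower). Csf1r, the receptor that microglia need to survive, stood at 9.18 and 9.08 in WT and 10.81 and 10.89 in rd1, a log2 difference of 1.72 ± 0.09 (adjusted p = 3.17e-17). P2ry12, the ADP receptor of resting microglia, stood at 6.68 and 6.69 in WT and 8.17 and 8.05 in rd1, a difference of 1.43 ± 0.14. Fcrls, a marker that separates microglia from other macrophages, stood at 6.62 and 6.75 in WT and 7.88 and 8.00 in rd1, a difference of 1.26 ± 0.10, and Aif1, which encodes Iba1, differed by 1.02 ± 0.13. Of the activated and phagocytic genes 17 of 22 rose and none fell, with a median of 0.91 (0.57 after centring, with 15 higher and 2 lower). Tyrobp, the adaptor of Trem2, stood at 6.69 and 6.87 in WT and 8.83 and 9.02 in rd1, a difference of 2.15 ± 0.12 (adjusted p = 6.24e-17). Ly86 stood at 7.82 and 7.80 in WT and 9.91 and 9.73 in rd1, a difference of 2.01 ± 0.12, and the lysosomal protein Cd68 at 6.27 and 6.26 in WT and 8.07 and 8.36 in rd1, a difference of 1.95 ± 0.13. Cst7, a cathepsin inhibitor of phagocytic microglia, stood at 5.86 and 5.88 in WT and 7.41 and 7.80 in rd1, a difference of 1.74 ± 0.09. Both rd1 arrays lay above both WT arrays in all of these genes, and the rd1 arrays differed from each other by less than they differed from WT. By limma none of 12 blood leukocyte genes was called (median 0.02, 0 at an unadjusted p under 0.05). Only 4 of them were left without the dimmest 30% of genes, so the lack of calls cannot show that blood leukocytes were absent. Ptprc, a marker of every leukocyte including microglia, rose by 1.14 ± 0.14 (0.58 as the mean of its probe sets).

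Complement genes rose in 9 of 15 cases and fell in none, with a median of 0.66 (0.31 after centring). The 3 chains of C1q, which microglia make, all rose. C1qa stood at 8.19 and 8.29 in WT and 10.89 and 11.15 in rd1, a log2 difference of 2.78 ± 0.13 (adjusted p = 1.16e-19), C1qc differed by 2.62 ± 0.11 and C1qb by 1.64 ± 0.20. As the mean of its probe sets C1qb differed by 2.59. Serping1, the inhibitor of the C1 complex, stood at 6.58 and 6.53 in WT and 9.19 and 8.81 in rd1, a difference of 2.44 ± 0.15. C3ar1, the receptor of the C3a fragment, stood at 6.34 and 6.22 in WT and 7.01 and 7.57 in rd1, a difference of 1.01 ± 0.13. Among chemokines and cytokines, 4 of 22 (18.18%) were higher and none lower, beside 12.4% and 9.18% of all genes. Their median was 0.06 (-0.28 after centring), and the calls numbered 1 without WT array 1 and 2 without WT array 2 or rd1 array 1. Lysosomal genes rose in 13 of 19 cases and fell in 1, with a median of 0.53 (0.19 after centring). The cathepsins Ctss and Ctsz, also abundant in microglia, stood at 9.34 and 9.21 in WT and 11.06 and 10.96 in rd1 and at 8.68 and 8.79 in WT and 10.16 and 10.38 in rd1, differences of 1.74 ± 0.11 and 1.54 ± 0.13. Ctsd, a cathepsin of most cells, differed by 1.09 ± 0.08 and progranulin, Grn, by 1.19 ± 0.09. Autophagy genes rose in 4 of 14 cases and fell in 1 (median 0.12, -0.22 after centring).

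Interferon-stimulated genes rose in 17 of 24 cases and fell in none, with a median of 0.62 (0.28 after centring, with 6 higher and 2 lower), but rd1 array 2 carried much of this. Ifitm3, which blocks the entry of viruses, stood at 7.95 and 7.91 in WT and 10.02 and 11.22 in rd1, a log2 difference of 2.69 ± 0.49 (adjusted p = 4.84e-05). Oasl2, a relative of the oligoadenylate synthetases, stood at 5.30 and 5.61 in WT and 6.67 and 8.28 in rd1, a difference of 2.02 ± 0.54 (adjusted p = 0.00449). Without rd1 array 2 its difference was 1.21 (adjusted p = 0.204), and without WT array 1 it was 1.87 (0.0525). Ifit1, which binds foreign RNA, stood at 5.01 and 4.63 in WT and 5.27 and 7.23 in rd1, a difference of 1.43 ± 0.48 that was 0.45 (adjusted p = 0.683) without rd1 array 2 and was not called without WT array 1 (0.0602) or WT array 2 (0.182). Usp18, which removes the ubiquitin-like Isg15, stood at 5.22 and 5.38 in WT and 5.90 and 7.70 in rd1, a difference of 1.5 ± 0.56 that was 0.59 (adjusted p = 0.648) without rd1 array 2 and was not called without WT array 1 (0.197) or WT array 2 (0.133). Lgals3bp, a secreted binding protein of galectins, stood at 7.37 and 7.21 in WT and 8.40 and 9.81 in rd1, a difference of 1.82 ± 0.38 that was 1.11 (adjusted p = 0.0604) without rd1 array 2, and Ddx60 stood at 4.05 and 4.23 in WT and 5.14 and 6.50 in rd1, with differences from 1.00 to 2.36 when single arrays were left out. Gbp2, a guanylate binding protein, was less uneven, at 4.55 and 4.51 in WT and 5.51 and 5.87 in rd1, a difference of 1.16 ± 0.17. The count of rises was 5 without rd1 array 2, and 7 without WT array 1 or WT array 2.

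The interferon level also varied between arrays of 1 genotype at other ages. At PN13 the mean of the list was 7.34, 7.75 and 7.30 in WT and 7.22, 6.95 and 6.87 in rd1, and 5 of the 24 genes were called lower in rd1 and none higher, beside 3.41% of all genes called lower and 4.09% called higher at that age. At PN21 the means were 7.61 and 6.72 in WT and 7.18 and 7.61 in rd1. The WT means of PN15, 6.59 and 6.61, thus lay below those of all WT arrays of PN13 and PN21. They lay close to the WT means of PN12, 6.53 and 6.52, while those of PN11 were 6.49, 7.05 and 7.01. What the WT level adds to the PN15 difference, or to its change from PN13, was not tested.

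**Figure D4:**
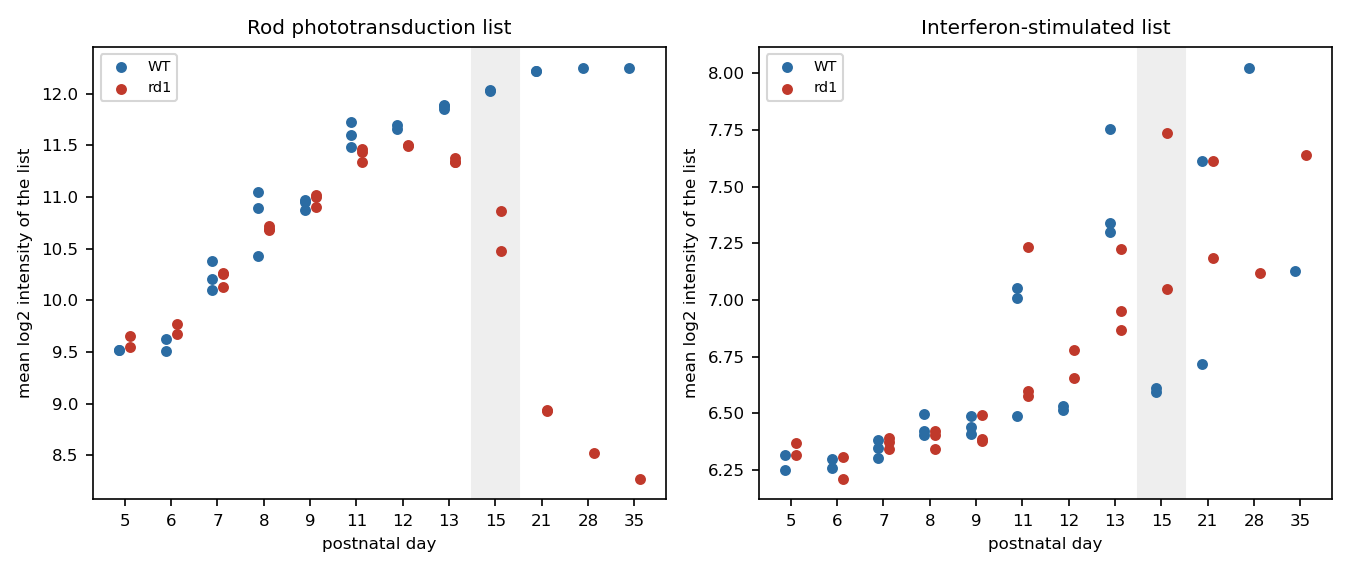
Mean log2 intensity (vertical axis) of the rod phototransduction list and of the interferon-stimulated list in each of the 54 arrays, by postnatal day (horizontal axis, evenly spaced), with WT in blue, rd1 in red and PN15 shaded. Rod means separate the genotypes fully at PN15, while interferon means scatter between arrays of 1 genotype at PN11, PN13 and PN21 as well.

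Antigen presentation genes rose in 5 of 16 cases and fell in none, beside 12.4% of all genes called higher and 9.18% lower. Their median was 0.26 (-0.08 after centring). B2m, the light chain of class I molecules, stood at 8.84 and 8.78 in WT and 11.27 and 11.94 in rd1, a log2 difference of 2.79 ± 0.24 (adjusted p = 4.01e-12), and its 2 probe sets gave 2.79 and 3.13. The class I heavy chain H2-K1 stood at 7.71 and 7.85 in WT and 8.23 and 8.53 in rd1, a difference of 0.60 ± 0.11 (0.26 after centring). No class II gene of the list was called. The rises numbered 3 without WT array 1 or rd1 array 2.

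Almost no gene of the standard proteasome was called under the deposited scaling. None of 14 genes of the 20S core was called by limma (median 0.01, range -0.27 to 0.20, 2 at an unadjusted p under 0.05), and of 20 genes of the 19S regulator 1 was lower (median 0.00). That gene, Psmd9, an assembly chaperone, stood at 8.41 and 8.41 in WT and 8.13 and 8.00 in rd1, a log2 difference of -0.35 ± 0.10 (adjusted p = 0.00946), and its call was lost without WT array 1, WT array 2 or rd1 array 2 (adjusted p from 0.055 to 0.115). After centring on amacrine and ganglion genes, 12 of 14 core and 17 of 20 regulator genes were called lower, beside 58.6% of all genes. Inducible subunits rose: 4 of 7 genes of the immunoproteasome and its 11S cap, with a median of 0.56 (0.22 after centring, with 2 higher and 2 lower). Psmb8 stood at 6.79 and 6.92 in WT and 7.46 and 7.88 in rd1, a difference of 0.82 ± 0.18 (adjusted p = 0.000582), on 1 of its 2 probe sets, the other at -0.02. Psmb9 stood at 6.09 and 6.10 in WT and 6.56 and 7.08 in rd1, a difference of 0.73 ± 0.16 that was 0.47 (adjusted p = 0.0797) without rd1 array 2. Psmb10 stood at 8.14 and 8.23 in WT and 8.69 and 8.90 in rd1, a difference of 0.61 ± 0.13, and Psme1, the cap subunit PA28 alpha, differed by 0.56 ± 0.09 with both rd1 arrays above both WT arrays. In Psmb8, Psmb9 and Psmb10 rd1 array 2 was the higher of the rd1 arrays, as for the interferon genes, and Psmb9 and Psmb10 were no longer called after centring (0.39 and 0.27). Ubiquitin pathway genes rose in 5 of 16 cases, beside 12.4% of all genes (median 0.07, -0.27 after centring). Of these rises 2 were left without WT array 2 and 1 without rd1 array 1. Sqstm1, the autophagy receptor p62, stood at 10.95 and 10.93 in WT and 11.54 and 11.33 in rd1, a difference of 0.49 ± 0.10 that was not called after centring (0.15) or as the mean of its 2 probe sets.

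Unfolded protein and integrated stress response genes moved both ways, with 8 of 24 higher, 3 lower and a median of 0.00 (-0.34 after centring). Chac1, which degrades glutathione and is induced through Atf4, stood at 7.56 and 7.45 in WT and 8.35 and 8.44 in rd1, a log2 difference of 0.90 ± 0.11 (adjusted p = 3.33e-08), and Asns, asparagine synthetase, stood at 9.24 and 9.20 in WT and 9.99 and 9.79 in rd1, a difference of 0.67 ± 0.08. Hspa5, Xbp1 and Ddit3 were not called. The counts were 6 higher and none lower without WT array 1, 6 and 1 without WT array 2, and 4 and none without rd1 array 1. Heat shock genes rose in 4 of 13 cases and fell in 2, beside 12.4% and 9.18% of all genes (median 0.12, -0.22 after centring). With single arrays omitted, 0 to 2 of either direction were left.

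Immediate early genes rose in 8 of 21 cases and fell in 1, with a median of 0.17 (-0.18 after centring). Fos stood at 9.81 and 9.62 in WT and 11.04 and 11.56 in rd1, a log2 difference of 1.58 ± 0.19 (adjusted p = 2.21e-08), Egr1 at 10.20 and 9.74 in WT and 11.40 and 11.76 in rd1, a difference of 1.61 ± 0.23, and Fosb at 4.93 and 5.17 in WT and 6.05 and 6.45 in rd1, a difference of 1.20 ± 0.15. Nr4a1, a nuclear receptor of the same early response, rose by 0.82 ± 0.13. Their differences had been larger at PN13, at 2.67, 2.20, 2.33 and 1.78. Ier3 fell, from 10.44 and 10.41 in WT and 9.32 and 9.41 in rd1, a difference of -1.07 ± 0.08.

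In the death pathway lists between 14.29% and 31.25% of the members were called, beside 21.5% of all genes. Of 24 apoptosis genes 5 rose and 1 fell (median 0.11, -0.23 after centring), with 1 rise left without WT array 1 and 2 without rd1 array 1. Tnfrsf1a, the death domain receptor of tumor necrosis factor, stood at 8.52 and 8.51 in WT and 9.48 and 9.34 in rd1, a log2 difference of 0.89 ± 0.08 (adjusted p = 6.27e-12). Xiap, an inhibitor of caspases, stood at 12.15 and 12.25 in WT and 11.46 and 11.44 in rd1, a difference of -0.75 ± 0.08, and all of its 7 probe sets were lower. Of 14 genes of necroptosis, pyroptosis and ferroptosis 1 rose and 1 fell (median 0.14, -0.20 after centring), the fall being Gpx4, and no rise was left without WT array 1. Of 16 calpain, PARP and HDAC genes 2 rose and 2 fell (median 0.02, -0.32 after centring), and no fall was left without WT array 1. The rises were those of the calpain subunits Capn2, at 8.08 and 8.14 in WT and 8.82 and 8.45 in rd1, a difference of 0.52 ± 0.09 with a range of 0.34 to 0.71 when single arrays were left out, and Capns1, a difference of 0.47 ± 0.09; neither was called after centring (0.18 and 0.13). Of 16 p53 and DNA damage genes 3 rose and 2 fell (median 0.09, -0.25 after centring). Gadd45a fell, from 8.86 and 8.98 in WT and 7.93 and 7.99 in rd1, a difference of -0.96 ± 0.13, while Phlda3 rose by 0.40 ± 0.09 (0.06 after centring). The p53 counts were 1 and 1 without WT array 2, 1 and 2 without rd1 array 1, and 2 and 1 without rd1 array 2.

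Genes of cGMP, calcium and protein kinase G signalling outside the rod list rose in 8 of 15 cases and fell in 2, with a median of 0.32 (-0.02 after centring). Prkg1, the cGMP-dependent kinase, stood at 9.33 and 9.30 in WT and 9.83 and 9.70 in rd1, a log2 difference of 0.45 ± 0.07 (adjusted p = 8.43e-06; 0.11 after centring). Kcnv2, a potassium channel subunit of photoreceptors, fell, from 10.50 and 10.69 in WT and 9.18 and 9.44 in rd1, a difference of -1.28 ± 0.12. The rises numbered 3 without WT array 1, 4 without WT array 2 and 1 without rd1 array 1.

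Energy metabolism genes moved both ways. Of 18 glycolysis and lactate genes 3 rose and 4 fell (median -0.04, -0.38 after centring). Hk2, the hexokinase bound to mitochondria in photoreceptors, stood at 11.01 and 10.90 in WT and 10.20 and 9.88 in rd1, a log2 difference of -0.92 ± 0.13 (adjusted p = 5.67e-07). Ldha, the lactate dehydrogenase subunit that favours lactate, stood at 13.06 and 13.02 in WT and 12.57 and 12.57 in rd1, a difference of -0.46 ± 0.06, and the lactate carrier Slc16a1 differed by -0.66 ± 0.13. Of 29 oxidative phosphorylation genes 3 fell and none rose (median -0.03), near the 9.18% of all genes called lower, with 1 left without WT array 2 or rd1 array 1. All 29 were called lower after centring, beside 58.6% of all genes. The largest of these falls was Ndufa4, at 12.37 and 12.44 in WT and 12.02 and 12.15 in rd1, a difference of -0.32 ± 0.07. Of 10 creatine and phosphotransfer genes 4 rose and 1 fell (median 0.20, -0.14 after centring), with 2 rises without rd1 array 1. Gatm, which makes the precursor of creatine, rose, from 6.26 and 6.38 in WT and 7.84 and 7.95 in rd1, a difference of 1.57 ± 0.17, and Ckmt1, the mitochondrial creatine kinase, fell, from 9.56 and 9.45 in WT and 8.84 and 8.53 in rd1, a difference of -0.82 ± 0.14. Cholesterol synthesis genes fell in 5 of 16 cases and rose in none, with a median of -0.23 (-0.57 after centring, with 15 lower beside 58.6% of all genes), and 2 falls were left without WT array 2 and 3 without rd1 array 2. Dhcr7, the last enzyme of the pathway, stood at 9.50 and 9.50 in WT and 8.98 and 8.97 in rd1, a difference of -0.53 ± 0.09, and Msmo1 differed by -0.46 ± 0.10.

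Among growth and trophic factors 6 of 20 rose and 3 fell, beside 12.4% and 9.18% of all genes. Their median was 0.17 (-0.17 after centring), and 2 rises were left without WT array 2 or rd1 array 1. Nxnl2 and Nxnl1, the genes of the rod-derived cone viability factors, stood at 11.63 and 11.68 in WT and 9.22 and 9.78 in rd1 and at 8.67 and 8.58 in WT and 7.33 and 7.59 in rd1, log2 differences of -2.16 ± 0.12 and -1.16 ± 0.13. Nrtn, the neurotrophic factor neurturin, stood at 8.87 and 8.86 in WT and 8.12 and 8.15 in rd1, a difference of -0.73 ± 0.12. Matrix and TGF beta genes rose in 10 of 24 cases and fell in none, with a median of 0.24 (-0.10 after centring). Timp2, an inhibitor of matrix metalloproteinases, stood at 10.43 and 10.37 in WT and 11.19 and 11.26 in rd1, a difference of 0.83 ± 0.09, although 1 of its 6 probe sets went the other way. Mmp14, a membrane-bound metalloproteinase, differed by 0.59 ± 0.10 (0.25 after centring, 0.32 as the mean of its probe sets).

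Few genes of cell types outside the neural retina were called. Of 19 endothelial and pericyte genes 2 rose and 1 fell (median -0.10, -0.44 after centring), with 1 rise and no fall without WT array 1. Kdr, a VEGF receptor of endothelium that Müller cells and other retinal cells also express, stood at 11.55 and 11.34 in WT and 12.09 and 12.04 in rd1, a log2 difference of 0.62 ± 0.08 (adjusted p = 1.52e-07). Of 13 pigment epithelium genes 1 rose (Mitf, 0.29), with a median of 0.06 (-0.28 after centring), and this call was lost without WT array 1, WT array 2 or rd1 array 1. None of 3 red blood cell, 12 skeletal muscle or 18 progenitor and cell cycle genes was called by limma, with medians of -0.01, -0.12 and 0.08 and 0, 0 and 2 at an unadjusted p under 0.05. Without the dimmest 30% of genes, 0, 4 and 13 of them were left. The lack of calls thus cannot show that blood or muscle was absent.

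PN15 was set against the ages on either side through the change of the rd1 minus WT difference, a comparison of ages that share no array. The changes before and after PN15 both contain the PN15 arrays. Over all genes 7.5% were called at PN13, 21.5% at PN15 and 35.4% at PN21 (23.8% higher and 11.6% lower). From PN13 to PN15 the difference changed for 704 genes (3.87%), of which 181 (0.995%) changed upward and 523 (2.87%) downward. The upward and downward counts were 90 and 308 without WT array 1 of PN15, 89 and 387 without WT array 2, 75 and 277 without rd1 array 1 and 426 and 542 without rd1 array 2. Of the rod phototransduction list, 18 of 24 changed downward, from a median of -0.55 at PN13 to -1.33 at PN15, and of the outer segment list 17 of 24. Of the interferon list, 15 of 24 changed upward, from a median of -0.28 to 0.62, with the levels in WT PN13 given above beside it. The activated microglia list changed upward in 8 of 22 cases, from 0.46 to 0.91. Reactive glia stayed near the same median, 0.59 and then 0.54, with 3 of 26 changing upward. Nt5e changed from -0.73 to -2.15, a change of -1.43 ± 0.13 (adjusted p = 9.42e-09), and the pair of inducible heat shock genes Hspa1a and Hspa1b from 1.54 and 1.85 to -0.05 and 0.26; these 2 genes are near-identical copies whose probe sets may share transcripts. Their levels at PN15 were 8.36 and 8.21 in WT and 8.04 and 8.43 in rd1 for Hspa1a and 9.42 and 9.36 in WT and 9.49 and 9.81 in rd1 for Hspa1b, without a call between genotypes. Kcnj14, a potassium channel, changed by -1.72 ± 0.35 and Prss56, a protease of Müller cells linked to eye growth, by -1.47 ± 0.24. B2m changed from 0.02 to 2.79, a change of 2.78 ± 0.31 (adjusted p = 1.7e-07).

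From PN15 to PN21 it changed for 1397 genes (7.68%), of which 878 (4.83%) changed upward and 519 (2.85%) downward. The counts were 492 and 362 without WT array 1 of PN15, 560 and 340 without WT array 2 and 353 and 316 without rd1 array 2, and the upward count was 511 without WT array 1 of PN21 and 567 without rd1 array 2 of PN21. All 24 rod phototransduction genes changed further downward, to a median of -3.17. Nrl changed from -1.35 to -4.58, a change of -3.23 ± 0.10 (adjusted p = 1.31e-24), and Gnat1 from -0.93 to -3.85, a change of -2.92 ± 0.39 (adjusted p = 1.2e-06). The cone median was 0.11, with 1 of 17 changing upward and 4 downward. The activated microglia list went back from 0.91 to 0.47, with 8 of 22 changing downward and 1 upward, and immediate early genes from 0.17 to -0.06, with 6 of 21 downward. Of the pigment epithelium list 10 of 13 genes changed upward, from a median of 0.06 to 2.19. Ttr, the thyroid hormone carrier, stood at 10.60 and 9.79 in WT and 10.17 and 10.79 in rd1 at PN15 and changed by 2.53 ± 0.57 (adjusted p = 0.00286), and Lrat, which esterifies retinol, stood at 6.21 and 5.90 in WT and 6.11 and 6.23 in rd1 and changed by 2.46 ± 0.18 (adjusted p = 5.09e-13). The mean of the pigment epithelium list was 8.80 and 8.79 in the rd1 arrays of PN21 against 7.03 and 7.08 in WT, and how much of it is pigment epithelium left on the dissected retina was not tested.

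**Figure D5:**
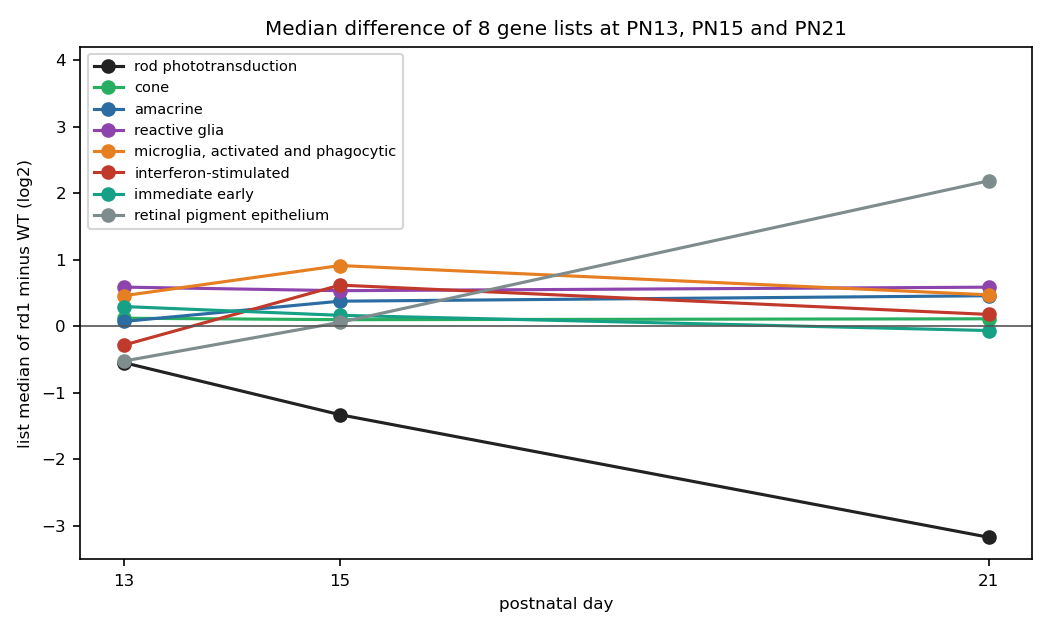
Median log2 difference of rd1 minus WT (vertical axis) of 8 gene lists at postnatal days 13, 15 and 21 (horizontal axis); lines join the medians of a list. The rod list goes from -0.55 to -1.33 and -3.17, the activated microglia and interferon lists are highest at PN15, and the pigment epithelium list reaches 2.19 at PN21.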

How the data were processed

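Expression was measured on oligonucleotide arrays, and the deposited values are linear intensities, 1 for each probe set on each array, made by the authors with RMA, per the submitters' processing notes, which name no version. Whether all 54 arrays were normalized together is not given in the sources used here. Intensities were turned into log2 values, with no minimum applied; detection calls were not used here. Of 45037 probe sets, 34945 name 1 gene symbol, 932 several and 9160 none; the latter 2 kinds were left out. For the 9010 genes with several probe sets, the one with the highest mean stood for the gene, which left 18193 genes.

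The model was a linear fit of limma (version 3.58.1, R version 4.3.3) to 50 arrays, those of the 10 replicated ages. It gave each genotype a mean at each age, which leaves 30 residual degrees of freedom, and variances were moderated along an intensity trend. Tests were 2-sided, with Benjamini-Hochberg adjustment across all genes and a threshold of 0.05. The number of arrays limits the precision.

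The genes, the 49 lists and the tests were chosen with earlier results of these data known. Named genes are the 20 largest rises and falls, up to 5 members per list, the 6 largest each way per change between ages, and Pde6b. Predicted genes, RIKEN clones and sequence tags were left unnamed, and the text gives a selection. Promoter windows are from RefSeq (GRCm38.p6).

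Alternatives were quantile normalization, centring on amacrine and ganglion genes, a filter on the dimmest 30% of genes, probe sets averaged per gene, moderation without a trend, array weights, the compared arrays alone, a replicate block and leaving out each array. The fit was first tested on simulated data. Leaving out arrays of PN13 and PN21 was added after seeing the data.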

Additional observations from a re-analysis of the deposited data

Results flagged for a closer look

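The rd1 minus WT difference at PN15 differed from that at the neighbouring ages in a tested way for 181 genes upward and 523 downward from PN13 to PN15, and for 878 upward and 519 downward from PN15 to PN21. From PN13 to PN15 the largest upward changes, on the log2 scale, were those of Oasl2 (3.59), Ifitm3 (3.50), Usp18 (3.41), Lgals3bp (2.97), Ddx60 (2.93) and B2m (2.78). The first 5 of these had been lower in rd1 than in WT at PN13 (-1.57, -0.81, -1.91, -1.16 and -1.25) and were higher at PN15. Over the interferon list the WT means went from 7.34, 7.75 and 7.30 at PN13 to 6.59 and 6.61 at PN15. The rd1 means went from 7.22, 6.95 and 6.87 to 7.05 and 7.74. The upward change of that list thus includes a lower WT level at PN15. The largest downward changes were those of Kcnj14 (-1.72), Hspa1a (-1.59), Hspa1b (-1.59), Prss56 (-1.47), Nt5e (-1.43) and Nxnl2 (-1.41). Hspa1a, Hspa1b and Prss56 had been higher in rd1 at PN13 (1.54, 1.85 and 0.38).

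From PN15 to PN21 the largest downward changes were rod genes: Nrl (-3.23), Pde6b (-3.16), Cnga1 (-3.13), Pde6a (-3.01), Gnat1 (-2.92) and Rp1 (-2.89). The largest upward changes were Ttr (2.53), Col8a2 (2.49), Lrat (2.46), Rgr (2.34), Dct (2.36) and Slc26a7 (2.30), of which none was called at PN15 by the fit over the replicated ages. Slc26a7 was called at PN15 by the mean of all probe sets (0.33, adjusted p = 0.00189) and on the PN15 arrays alone (0.37, adjusted p = 0.0437). In the pigment epithelium list are 5 of the 6. All 24 changes named here stayed past the threshold when any single array of the compared ages was left out.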

How the results depend on the processing

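Centring on amacrine and ganglion genes moved the PN15 counts to 11027 called, 359 higher and 10668 lower, turned Opn1sw from 0.15 to -0.19 and ended the calls of Gnb3, Calb2, Nefl, Nefm, Usp18, Ifit1, H2-K1, Psmb9, Psmb10, Sqstm1, Capn2, Capns1, Prkg1 and Phlda3. It also moved the changes from PN13 to PN15 to 5805 (53 upward, 5752 downward) and the upward changes from PN15 to PN21 to 455. Quantile normalization gave 352 upward changes from PN13 to PN15 and 786 downward ones from PN15 to PN21, and the arrays of PN15 and PN21 alone gave 823 changes (490 upward, 333 downward). With single arrays left out, the calls at PN15 numbered 2294 to 3611 (1029 to 2290 higher, 1157 to 1321 lower), the changes from PN13 to PN15 352 to 968 (75 to 426 upward, 277 to 542 downward) and those from PN15 to PN21 669 to 1760 (353 to 1136 upward, 316 to 624 downward). Without the dimmest 30% of genes, members removed by that filter brought the rises to 8 homeostatic microglia, 5 complement and 10 interferon genes. The 20S core had 1 gene called after quantile normalization, by the mean of all probe sets or on the PN15 arrays alone. Usp18 was no longer called by the mean of all probe sets, without a trend or with array weights (adjusted p from 0.059 to 0.066). The mean of all probe sets kept the calls of several genes but made their differences smaller. These included Samd11 (-1.11), Plpp2 (-1.07), Nt5e (-1.16), Susd3 (-1.60), Slc16a1 (-0.41), Cebpd (1.28), Cebpb (1.38), Cd53 (1.00), Ptprc (0.58), H2-K1 (0.36) and Mmp14 (0.32). It made the difference of C1qb larger (2.59). The other alternatives left the 3 PN15 counts within 1.5 times their values.

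Same-numbered arrays deviated together with a correlation of 0.104 at PN15 and of -0.442 to 0.486 at other ages. With 2 arrays per genotype at PN15, this cannot show whether same-numbered arrays share more than a number. With a replicate block the counts were 3978 called, 2313 higher and 1665 lower at PN15, 669 changes from PN13 to PN15 and 1397 from PN15 to PN21, and no named gene lost its call. The 2 arrays per genotype limit what can be called.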
